A study of Homo sapiens with 18 samples.

Results

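The Burkitt lymphoma lines Raji and Namalwa were compared with the classical Hodgkin lymphoma line L428 on 9 of the 18 arrays of the series, 3 for each line. The comparison set the mean of the Raji and Namalwa group means against the 3 L428 samples, over the 18417 genes that have a probe set with 1 gene symbol, out of 33297 probe sets on the array. Raji and Namalwa had no treatment. The L428 samples, called L428+M, had 0.25 nM mifepristone for 5 days, the drug that induces PAX5 in an engineered derivative of L428 used elsewhere in the series. All 3 lines were cultured in the same medium with fetal calf serum. Since neither Burkitt line was given mifepristone, cell line and mifepristone cannot be told apart in any comparison with L428+M. Each line stands for its lymphoma as 1 cell line, and the labels do not state if the 3 samples of a line come from separate cultures. The p-values thus rest on sample-to-sample spread that may be technical.

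Burkitt lymphoma arises from germinal-centre B cells, in which a chromosomal translocation places MYC under the control of an immunoglobulin locus. Its cells keep the B-cell receptor: an immunoglobulin at the surface, the signalling chains CD79A and CD79B, and kinases that pass the signal inward. The tumour cells of classical Hodgkin lymphoma also descend from germinal-centre B cells, but they have lost most B-cell proteins and live on cytokine, JAK-STAT, NF-kB and AP-1 signalling. Raji and Namalwa carry Epstein-Barr virus and L428 does not.

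Values are the deposited log2 expression values. A gene was called higher or lower where limma's adjusted p was below 0.05 and the change was at least 2-fold. Changes are log2 differences of Burkitt lines minus L428+M with their standard error (± SE, n = 6 against 3 arrays). The standard error holds the spread of arrays within groups and none of the difference between the 2 Burkitt lines. Arrays of 1 line correlated across genes with r from 0.9813 to 0.9961, and no 2 arrays were identical. The arrays numbered 3 of all 3 lines stood apart from the rest and got the lowest array weights, from 0.34 to 0.54. The counts of the comparisons, of list members called higher or lower and of chromosome 13 were therefore also made without them. Other counts, such as those of promoters, larger folds, overlap and zinc finger genes, were made with all arrays only. The small number of arrays limits precision, and dim signal is compressed, so that changes of dim genes are understated. In RNA from a whole culture, fewer cells that express a gene and less RNA per cell cannot be told apart.

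The markers of the labelled cell types were checked first. PAX5, the master regulator of B-cell identity, had log2 values of 10.97, 10.94 and 10.77 in Raji and 11.31, 11.07 and 10.85 in Namalwa, against 8.64, 7.14 and 6.70 in L428+M. Every Burkitt array lay above every L428+M array, and L428+M replicate 1 stood above the other 2. The change was 3.49 ± 0.26 (adjusted p = 2.25e-09), and 4.07 without L428+M replicate 1. TNFRSF8, the CD30 antigen that defines Hodgkin cells, had 7.67, 7.53 and 7.85 in Raji and 7.70, 7.54 and 7.35 in Namalwa, against 10.22, 10.11 and 9.32 in L428+M. FSCN1, the actin-bundling protein fascin, had 7.93, 7.98 and 7.05 in Raji and 7.69, 7.90 and 7.27 in Namalwa, against 12.65, 12.54 and 11.96 in L428+M. Both were highest on the 3 L428+M arrays. Against the label, the Hodgkin chemokine CCL22 had 7.97, 8.02 and 7.63 in Raji and 7.53, 7.56 and 7.11 in Namalwa, against 6.56, 6.63 and 6.33 in L428+M, so L428+M held the lowest values of a marker that should define it. MS4A1, the B-cell antigen CD20, was bright in Raji and dim in Namalwa, where its 3 values were 5.78, 5.90 and 6.72, below 7.18, the median of all values.

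The Burkitt lines differed from L428+M by a call in 2663 genes. Of all genes tested, 6.61% were called higher in the Burkitt lines (1218 genes) and 7.85% lower (1445 genes), while the median change over all genes was 0.03. Large differences ran more often downward, with 331 genes at least 4-fold higher and 587 at least 4-fold lower, and 63 genes at least 16-fold higher and 156 at least 16-fold lower. In 2405 of the 2663 genes the 6 Burkitt values did not overlap the 3 L428+M values, which a call by itself favours. Of all genes tested, 14.6% were higher without overlap and 13.6% were lower without overlap. The 2 lines gave similar totals by themselves. Raji had 1176 genes higher than L428+M (6.39%) and 1564 lower (8.49%), and Namalwa had 1518 higher (8.24%) and 1461 lower (7.93%).

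Both Burkitt lines were called on the same side of L428+M in 781 genes that were higher (4.24% of genes tested) and 1049 that were lower (5.7%). These make up 29.3% and 39.4% of the genes called. The rest of the calls rested on 1 line: 195 genes were called in Raji and not in Namalwa with the lines also called apart (1.06%), and 231 were called in Namalwa and not in Raji (1.25%). In a further 401 genes only 1 line passed, but Raji and Namalwa were not called apart (2.18%). The lines lay on opposite sides of L428+M, each with a call, in 48 genes (0.261%), and in 42 of those the Burkitt mean itself was not called. Set against each other, Raji was higher than Namalwa in 499 genes (2.71%) and lower in 932 (5.06%), together 7.77% of genes. Of these, 690 were also called in the Burkitt mean. The counts of genes called in 1 line take only genes called in the Burkitt mean, so they leave out the other genes on which the lines differ.

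**Figure D1:**
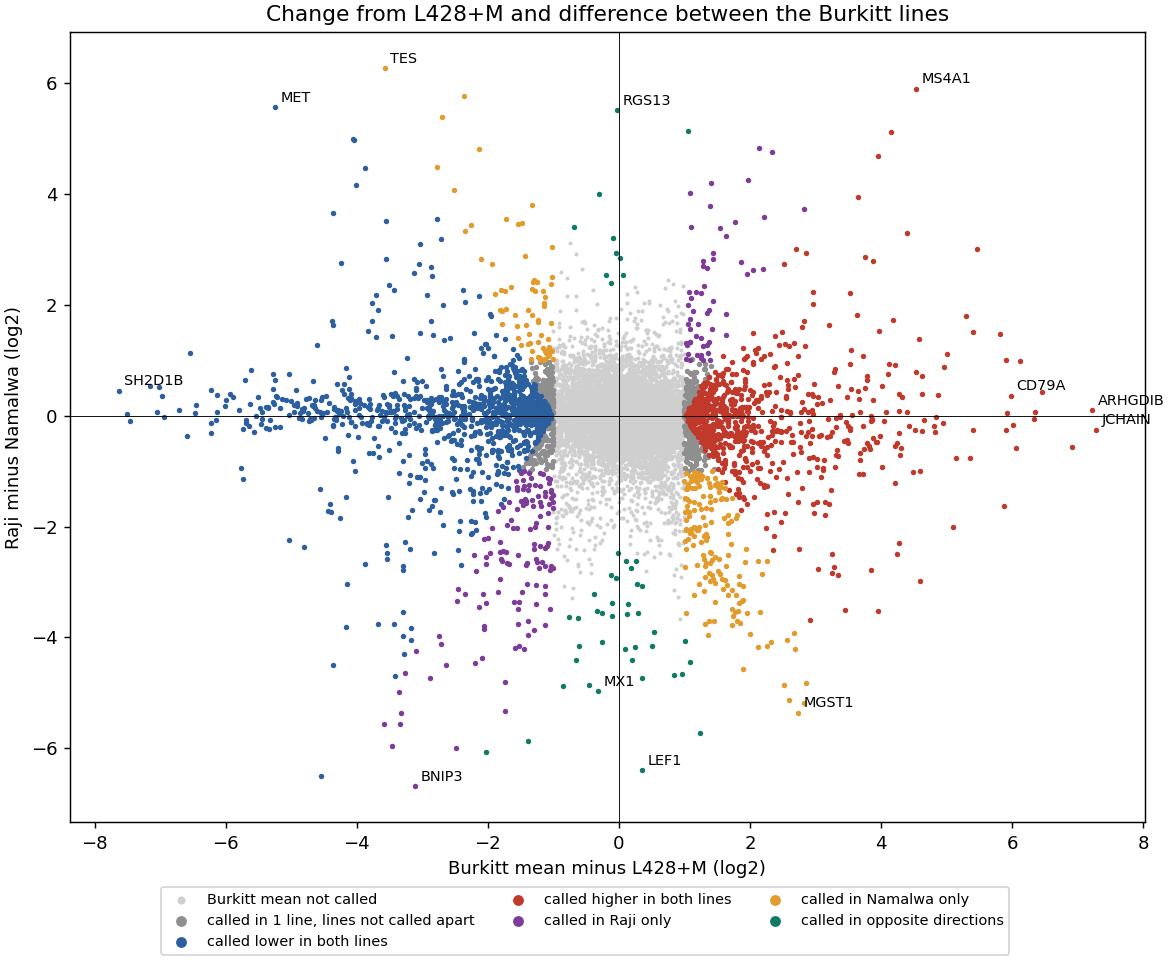
Each point is 1 gene, with the change of the Burkitt mean from L428+M on the x axis and the difference of Raji minus Namalwa on the y axis, both in log2 units, coloured by how the 2 lines were called. The leading rises and falls, such as JCHAIN, ARHGDIB and SH2D1B, lie near the horizontal line where the lines do not differ, whereas LEF1, MX1 and RGS13 lie near a change of 0 with the lines far apart.

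The largest rise shared by both lines was that of JCHAIN, the chain that joins immunoglobulin into polymers, with values of 12.32, 12.37 and 12.49 in Raji and 12.39, 12.70 and 12.84 in Namalwa, against 5.64, 4.97 and 5.11 in L428+M. ARHGDIB, an inhibitor of small GTPases in blood cells, had 12.20, 12.10 and 12.33 in Raji and 11.99, 12.16 and 12.18 in Namalwa, against 5.05, 4.80 and 4.96 in L428+M. The 6 Burkitt arrays were bright and the 3 L428+M arrays dim in each, with changes of 7.28 ± 0.16 and 7.22 ± 0.13, and the lines differed by -0.25 ± 0.18 and 0.10 ± 0.15. PLAC8 (6.92 ± 0.16), CDCA7L, a partner of MYC (6.34 ± 0.18), the cold-shock protein YBX3 (5.92 ± 0.15) and MFNG, a glycosyltransferase that modifies Notch receptors (6.06 ± 0.15), each rose by more than any B-lineage transcription factor in the list used here. MFNG was the one of these 4 with the widest difference between lines, -0.59 ± 0.17, which was not called.

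The largest shared fall was that of SH2D1B, the adaptor EAT-2 of SLAM receptors, with 5.34, 4.74 and 5.34 in Raji and 4.43, 4.70 and 4.92 in Namalwa, against 12.65, 12.41 and 12.58 in L428+M. CYP4Z1, a cytochrome P450, had 5.20, 5.31 and 5.73 in Raji and 5.55, 5.35 and 5.61 in Namalwa, against 13.09, 12.79 and 12.88 in L428+M, and THEMIS, a protein of T-cell receptor signalling, had 5.36, 5.47 and 6.35 in Raji and 4.48, 4.68 and 4.60 in Namalwa, against 11.60, 11.61 and 11.91 in L428+M. No Burkitt value of these 3 genes came near an L428+M value. THEMIS was the only one of the 12 leading falls in which the lines were called apart, at 1.14 ± 0.31 for Raji minus Namalwa. ANXA1, the annexin that dampens inflammation (-6.94 ± 0.17), AHR, the aryl hydrocarbon receptor (-6.71 ± 0.16), LRRN3, a leucine-rich repeat protein (-7.02 ± 0.25), and the cyclin CCND2 (-6.47 ± 0.15) also fell. CCR4, the receptor of the Hodgkin chemokines CCL17 and CCL22, fell by a change of -6.59 ± 0.20.

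Promoter sequences were available for 14219 of the measured genes, covering 250 bases before the start and 50 after it (RefSeq, GRCh38.p14). The octamer ATGCAAAT, read on both strands, is the site of POU2F2, which acts with the coactivator POU2AF1. It was present in 18 of 636 promoters of genes higher in both lines (2.83%), 14 of 822 of genes lower in both (1.7%), and 1.62% of all promoters. These 3 promoters of shared rises hold it, shown as 60 bases of the gene's strand with the octamer (as its reverse complement) in capitals, chosen after the values were seen:
CD53 (chr1:110871138-110871197, plus strand): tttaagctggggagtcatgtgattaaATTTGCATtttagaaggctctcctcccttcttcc
SERPINA9 (chr14:94476297-94476356, minus strand): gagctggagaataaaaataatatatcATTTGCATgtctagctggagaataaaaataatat
VPREB3 (chr22:23754439-23754498, minus strand): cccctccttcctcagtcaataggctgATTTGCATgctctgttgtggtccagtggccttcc
The octamer began 46 bases before the start in CD53, 47 in VPREB3 and 133 in SERPINA9. The AP-1 motif TGANTCA was present in 3.3% of promoters of shared rises, 7.06% of shared falls and 5.58% of all. Both the leading rise and the leading fall hold it, with the AP-1 motif in capitals:
JCHAIN (chr4:70666650-70666709, minus strand): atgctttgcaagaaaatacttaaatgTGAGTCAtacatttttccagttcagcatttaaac
SH2D1B (chr1:162412210-162412269, minus strand): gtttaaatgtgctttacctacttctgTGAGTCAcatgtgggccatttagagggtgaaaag
The NF-kB motif was present in 12.4% of promoters of shared rises, 14.2% of shared falls and 12.4% of all, and the interferon motif, which is GAAA repeated after 2 free bases, in 2.52%, 4.74% and 3.04%. A chemokine and an inhibitor of NF-kB show the first, and a second chemokine shows the other, again in capitals:
CCL1 (chr17:34363399-34363458, minus strand): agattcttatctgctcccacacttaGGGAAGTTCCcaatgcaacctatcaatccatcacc
NFKBIA (chr14:35404796-35404855, minus strand): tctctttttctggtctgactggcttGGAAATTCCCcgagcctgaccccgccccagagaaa
CXCL10 (chr4:76023684-76023743, minus strand): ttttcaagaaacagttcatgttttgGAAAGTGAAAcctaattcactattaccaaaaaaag
In CCL1 another NF-kB match overlapped the one shown. The STAT motif TTCNNNGAA was present in 4.87%, 6.57% and 7.06%, and the E-box CACGTG, which MYC binds, in 10.4%, 8.15% and 8.88%. Motifs were searched on both strands and may overlap one another. A match describes these letters only.

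The B-cell receptor and its coreceptors were higher in the Burkitt lines almost throughout. Of 12 measured members, 11 were called higher in both lines and none lower, with a median change of 4.04. Each list count is to be read beside all genes. Of these, 6.61% were called higher, 7.85% lower and 7.77% apart between Raji and Namalwa. Wherever a list had no member called in a direction, limma at an unadjusted p below 0.05 and any fold gave 0 to 2 members there, and none at 2-fold. CD79A, the receptor's signalling chain, had 12.45, 12.38 and 12.07 in Raji and 12.14, 12.01 and 11.64 in Namalwa, against 6.37, 6.24 and 5.78 in L428+M. Its partner CD79B had 11.24, 11.37 and 11.37 in Raji and 10.32, 10.51 and 10.36 in Namalwa, against 6.49, 6.69 and 7.04 in L428+M. Both groups of Burkitt arrays lay far above L428+M (63.3-fold and 17.4-fold, adjusted p = 2.23e-16 and 1.01e-14). The receptor CD22, which restrains B-cell receptor signals, rose by 5.91 ± 0.14, and the tetraspanin CD53 by 4.62 ± 0.15. CD40, which receives help from T cells, was not called, with means of 8.72 in Raji and 7.84 in Namalwa, against 8.42 in L428+M.

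Within that list Raji and Namalwa were called apart in 4 genes, all higher in Raji. MS4A1 had 11.82, 11.88 and 12.38 in Raji and 5.78, 5.90 and 6.72 in Namalwa, against 4.44, 4.44 and 4.76 in L428+M. CR2, the complement receptor that Epstein-Barr virus uses to enter B cells, had 11.20, 11.05 and 10.99 in Raji and 6.45, 6.59 and 6.13 in Namalwa, against 5.25, 4.79 and 4.30 in L428+M. In each gene the Namalwa values lay nearer to L428+M than to Raji, although they did not overlap L428+M. The difference of Raji minus Namalwa was 5.90 ± 0.25 for MS4A1, 4.69 ± 0.22 for CR2, 2.01 ± 0.18 for the inhibitory Fc receptor FCGR2B and 1.0 ± 0.16 for CD22.

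Among 16 kinases, phosphatases and adaptors of the receptor, 10 were called higher and 1 lower (median 1.5). The tyrosine kinase BTK had 10.42, 10.44 and 10.62 in Raji and 9.50, 9.63 and 9.71 in Namalwa, against 4.99, 5.24 and 5.05 in L428+M, and SYK, which CD79A and CD79B recruit, had 9.70, 9.81 and 9.51 in Raji and 10.21, 10.17 and 10.17 in Namalwa, against 5.67, 5.88 and 5.48 in L428+M. BLNK, the adaptor that SYK phosphorylates, had 9.76, 9.82 and 9.98 in Raji and 9.99, 10.18 and 10.24 in Namalwa, against 5.10, 5.33 and 5.67 in L428+M. In these 3 genes every Burkitt array lay at least several log2 units above L428+M, and the changes were 4.96 ± 0.12, 4.25 ± 0.13 and 4.63 ± 0.16. The adaptor GRAP also rose (2.96 ± 0.52), more in Raji. LYN, the kinase that starts the signal, stayed under the 2-fold threshold (0.77 ± 0.17), and GRB2 (0.38 ± 0.10), CBL (0.18 ± 0.11) and PTPN6 (-0.23 ± 0.19) were not called. The scaffold BANK1 split the lines, with 9.0 in Raji and 4.79 in Namalwa, against 5.49 in L428+M as group means, and was called in Raji and not in Namalwa. The adaptor DAPP1 was the one member called lower (-1.42 ± 0.22).

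Further down the pathway the change was smaller. Of 23 second-messenger genes, 6 were called higher and 3 lower, and the median change was 0.59. The transcription factor NFATC1 rose most (2.66 ± 0.14), followed by the exchange factor RASGRP2 (1.80 ± 0.11), the inositol kinase ITPKB (1.58 ± 0.13) and the lipid phosphatase INPP5D (1.25 ± 0.15). PLCG2, the phospholipase that BLNK brings to BTK, was not called (0.18 ± 0.14), nor was PIK3CD (0.27 ± 0.22). The calcium channel ITPR1 (-1.32 ± 0.16), NFATC2 (-1.31 ± 0.12) and the kinase PIK3CG (-1.20 ± 0.15) fell. ITPR1 was called lower in both lines, and PIK3CG in Raji and not in Namalwa. NFATC2 passed in Raji (-1.75) and not in Namalwa (-0.88), but the lines were not called apart.

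**Figure D2:**
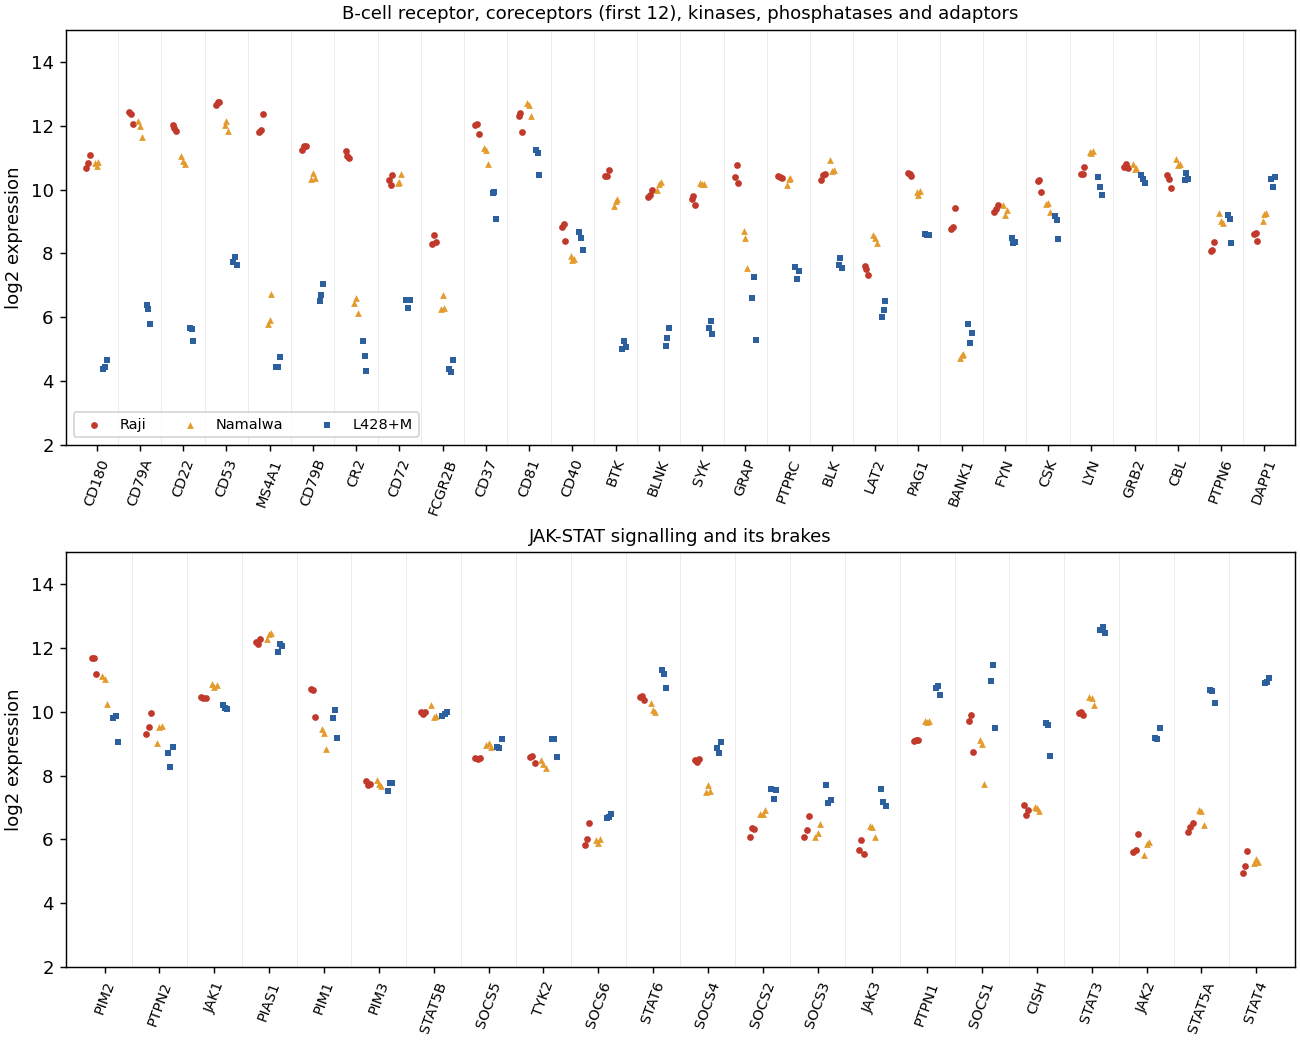
The upper panel shows log2 expression on each of the 9 arrays for the receptor and coreceptor genes (the first 12) and the receptor kinases, phosphatases and adaptors, each ordered by change, and the lower panel shows JAK-STAT genes in the same way. Red circles are Raji, orange triangles Namalwa and blue squares L428+M, so that CD79A, BTK, SYK and BLNK show the Burkitt arrays well above L428+M, and STAT4, STAT5A and JAK2 show them well below.

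Of 24 transcription factors of the B lineage, 13 were called higher and 1 lower, with a median change of 1.17. POU2AF1, the octamer coactivator, had 11.35, 11.61 and 11.13 in Raji and 11.10, 11.06 and 10.82 in Namalwa, against 6.32, 6.51 and 6.11 in L428+M, and the Burkitt values all lay above L428+M (4.87 ± 0.15). Its DNA-binding partner POU2F2 rose by 1.84 ± 0.15, the ETS factors ELF1 and ETS1 by 2.60 ± 0.12 and 2.48 ± 0.17, and TCF3, the E protein E2A, by 1.63 ± 0.19. BCL6, the repressor that defines germinal-centre B cells, had 12.25, 12.30 and 12.37 in Raji and 11.95, 11.86 and 11.87 in Namalwa, against 9.82, 10.04 and 9.73 in L428+M, with no overlap and a change of 2.24 ± 0.14. IRF4, which drives exit from the germinal centre, was the member called lower, with 7.01, 6.57 and 6.92 in Raji and 11.07, 10.97 and 10.64 in Namalwa, against 12.03, 12.21 and 11.85 in L428+M. Its L428+M values were the highest, Raji was the lowest, and Namalwa lay between (-4.05 ± 0.16 for Raji minus Namalwa). MEF2C (0.01 ± 0.10), IKZF1 (0.0 ± 0.23), MYB (0.03 ± 0.19), FOXO1 (0.45 ± 0.12) and TCF4 (-0.07 ± 0.24) were not called. For IKZF1 and TCF4 the mean covers lines that were called apart and lay on either side of L428+M, with changes of -0.66 in Raji and 0.66 in Namalwa for IKZF1 and -0.76 in Raji and 0.63 in Namalwa for TCF4.

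Inhibitors of these factors were counted in 1 list with factors of other lineages. This mixed list did not move as 1 group, with 2 of 18 called higher, 3 lower and a median change of -0.08. MSC, known as ABF1, an inhibitor of E proteins in Hodgkin cells, had 5.58, 5.33 and 5.58 in Raji and 5.57, 5.64 and 5.48 in Namalwa, against 11.81, 12.12 and 11.07 in L428+M. GATA3, a regulator of T cells, had 5.58, 5.77 and 5.39 in Raji and 6.01, 5.88 and 5.55 in Namalwa, against 11.24, 11.82 and 11.23 in L428+M. Both were bright in L428+M and dim in both Burkitt lines, without overlap (70.3-fold and 53.3-fold lower). ID2, which sequesters E proteins, had 8.32, 8.72 and 7.91 in Raji and 9.76, 10.0 and 9.28 in Namalwa, against 11.57, 11.30 and 10.78 in L428+M, all Burkitt values being lower (-2.22 ± 0.23). Its relative ID3 rose instead, with 10.15, 10.16 and 9.49 in Raji and 10.45, 10.58 and 10.25 in Namalwa, against 6.79, 6.28 and 6.10 in L428+M, and did not overlap either (3.79 ± 0.24). HES1, a Notch target, rose by 2.40 ± 0.13, while NOTCH1 (0.01 ± 0.23) and CEBPB (-0.38 ± 0.22) were not called. NOTCH1 was called apart between the lines, with changes of -0.85 in Raji and 0.87 in Namalwa.

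Germinal-centre and Burkitt genes had 12 of 18 members called higher and none lower (median 2.31). MME, the CD10 surface peptidase of germinal-centre B cells, had 11.42, 11.47 and 11.51 in Raji and 12.05, 12.37 and 12.29 in Namalwa, against 6.71, 6.53 and 6.24 in L428+M. SERPINA9, also named centerin, had 12.16, 12.31 and 12.46 in Raji and 9.14, 9.52 and 9.26 in Namalwa, against 5.30, 5.24 and 5.48 in L428+M, and no value overlapped L428+M in either gene. SERPINA9 was higher in Raji than in Namalwa by 3.0 ± 0.19, and TCL1A, a coactivator of the kinase AKT, was lower in Raji by -1.62 ± 0.19. CCND3, a cyclin that Burkitt lymphoma often keeps active, rose evenly, at 2.26 in Raji and 2.34 in Namalwa. RGS13, a brake on chemokine receptors in the germinal centre, moved in opposite directions and LMO2 was not called (0.11 ± 0.14).

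In the immunoglobulin list 6 of 9 measured members were called higher and none lower, 3 of them in both lines. VPREB3 rose by 2.55 ± 0.18 and IGKC, the kappa constant region, by 1.34 ± 0.17. VPREB1, a chain of the surrogate light chain of precursor B cells, had 4.51, 4.95 and 4.94 in Raji and 8.13, 8.39 and 7.89 in Namalwa, against 4.71, 4.53 and 4.52 in L428+M. RAG2, a recombinase subunit, had 3.67, 3.49 and 4.20 in Raji and 6.27, 7.04 and 7.44 in Namalwa, against 3.74, 3.56 and 4.0 in L428+M. Both were highest on the 3 Namalwa arrays, their Raji values overlapped L428+M, and the differences of Raji minus Namalwa were -3.34 ± 0.18 and -3.13 ± 0.26. RAG1, the partner of RAG2, was not called (0.01 ± 0.15). Probe sets of immunoglobulin genes may share signal with each other. Of 12 Fc receptor genes, 4 were called higher and none lower. FCRLA rose in both lines (4.54 ± 0.18) as did FCMR, the receptor for IgM (1.41 ± 0.15). FCRL3 was high in Raji alone, with 9.50 in Raji and 5.23 in Namalwa, against 5.40 in L428+M as group means.

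Plasma-cell and secretory genes had 6 of 16 members called higher and 2 lower (median 0.16). CD38, an ectoenzyme of plasma cells that germinal-centre cells also carry, had 12.12, 12.13 and 12.13 in Raji and 12.34, 12.33 and 12.18 in Namalwa, against 6.40, 6.19 and 5.96 in L428+M, all Burkitt values being far above L428+M (6.02 ± 0.12). MZB1, a chaperone of immunoglobulin, rose by 2.78 ± 0.12, and ERN1, the sensor of the unfolded protein response, by 1.55 ± 0.22. PRDM1, the repressor BLIMP1 that sets the plasma-cell fate, had 7.26, 7.21 and 7.32 in Raji and 8.40, 8.43 and 8.19 in Namalwa, against 9.98, 10.38 and 9.83 in L428+M and fell without overlap, further in Raji (-1.08 ± 0.16 between lines). XBP1 (-0.21 ± 0.15) and the plasma-cell antigen SDC1 (-0.13 ± 0.13) were not called.

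Antigen presentation did not move as 1 block. Of 15 measured genes of HLA class II presentation (18 listed), 4 were called higher and 2 lower. Of 13 measured genes of class I presentation (20 listed), 3 were called higher and 1 lower. Of all genes, 6.61% were called higher and 7.85% lower. The 13 hold no HLA class I heavy chain, and HLA-DRA is not among the 15. Raji and Namalwa were called apart in 6 of the class II genes, where 7.77% of all genes were. HLA-DOB, which restrains peptide loading in B cells, had 9.49, 9.64 and 9.45 in Raji and 6.92, 6.82 and 6.94 in Namalwa, against 5.93, 6.01 and 6.53 in L428+M, and HLA-DQA1 had 9.77, 9.85 and 9.24 in Raji and 7.35, 7.72 and 8.30 in Namalwa, against 7.03, 7.16 and 7.03 in L428+M. Both were called in Raji and not in Namalwa, whose values lay nearer to those of L428+M. HLA-DPB1 fell in both lines (-1.44 ± 0.12), and RFXAP, a subunit of the factor that binds class II promoters, rose (1.32 ± 0.10). The coactivator CIITA was not called (-0.24 ± 0.16). In the class I list the aminopeptidase ERAP2 rose (1.89 ± 0.27), TAPBPL fell (-1.82 ± 0.15), and B2M was not called (0.17 ± 0.16). Without L428+M replicate 3, 1 class II gene in place of 2 was called lower, and for class I the counts became 1 higher and 2 lower. Without Namalwa replicate 1, 2 class I genes were called lower. HLA probe sets may share signal between members.

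Of 28 chemokines and cytokines that Hodgkin cells secrete, 14 were called lower in the Burkitt lines, 2 higher and 12 not, with a median change of -0.78. CCL1 had 6.34, 6.11 and 6.23 in Raji and 6.04, 5.65 and 5.42 in Namalwa, against 13.06, 13.16 and 13.11 in L428+M, and CCL5, which draws T cells and mast cells, had 5.39, 5.64 and 4.83 in Raji and 6.58, 6.48 and 5.66 in Namalwa, against 11.61, 11.81 and 11.15 in L428+M. IL5, a growth factor of eosinophils, had 3.62, 3.94 and 4.48 in Raji and 3.66, 3.07 and 4.33 in Namalwa, against 8.32, 7.01 and 8.63 in L428+M. In all 3 genes every Burkitt array lay below every L428+M array, and the changes were -7.15 ± 0.28, -5.76 ± 0.21 and -4.13 ± 0.35. CCL17, which draws T cells through CCR4, had 7.68, 7.57 and 7.82 in Raji and 7.45, 7.44 and 7.75 in Namalwa, against 10.81, 10.35 and 10.44 in L428+M and fell by a change of -2.92 ± 0.15, opposite in direction to CCL22 (1.13 ± 0.15). CXCL10, induced by interferon, fell by a change of -4.61 ± 0.20. Elsewhere in the list CXCL9 (0.18 ± 0.24), CXCL8 (-0.24 ± 0.14), TGFB1 (0.19 ± 0.15) and IL31 (-0.56 ± 0.26) were not called. IL16 rose (1.70 ± 0.16). TNF, LTA and EBI3 fell in both lines and lay lower in Namalwa, with Raji minus Namalwa differences of 2.58 ± 0.26, 2.73 ± 0.18 and 2.17 ± 0.28.

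Of 26 cytokine receptors 8 were called lower and 3 higher, where 7.85% and 6.61% of all genes were. IL13RA1 had 4.75, 4.73 and 4.81 in Raji and 4.47, 4.17 and 4.58 in Namalwa, against 11.53, 11.37 and 11.76 in L428+M, and IL5RA, the receptor for IL5, had 4.67, 4.82 and 5.65 in Raji and 4.86, 4.83 and 5.25 in Namalwa, against 11.03, 11.18 and 11.20 in L428+M. The Burkitt values of both were at the dim end and did not overlap L428+M. IL3RA (-4.47 ± 0.19) and IL18R1 (-4.45 ± 0.21) fell as well. IL7R, a cytokine receptor of precursor B cells, rose (3.68 ± 0.16), as did IFNAR2, a chain of the type I interferon receptor (2.22 ± 0.18). IL2RA, the CD25 antigen, had 6.45 in Raji and 10.15 in Namalwa, against 6.93 in L428+M as means, high in Namalwa and not in Raji. IL4R (-0.85 ± 0.13) and IL6R (0.06 ± 0.11) were not called, although the lines were called apart in IL4R (-0.23 in Raji and -1.48 in Namalwa).

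The TNF receptor superfamily held changes both ways, with 6 of 21 called higher and 5 lower (median 0.17). CD27, a receptor of memory and germinal-centre B cells, had 12.55, 12.67 and 12.52 in Raji and 11.28, 11.26 and 10.68 in Namalwa, against 6.29, 6.31 and 6.66 in L428+M and rose most (5.41 ± 0.16). TRAF3, which limits the alternative NF-kB pathway, rose by 1.65 ± 0.20. TNFRSF9, a costimulatory receptor, fell by a change of -3.42 ± 0.15, and FAS, the death receptor, had 9.71, 9.69 and 9.87 in Raji and 6.63, 7.33 and 7.24 in Namalwa, against 11.21, 11.01 and 11.63 in L428+M. FAS fell in both lines but its Namalwa values were the lowest (2.69 ± 0.39 between lines). TNFRSF11A, the receptor RANK, fell by a change of -2.87 ± 0.21, and TRAF1 by -2.67 ± 0.21.

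Of 23 NF-kB genes none was called higher and 7 were called lower (median -0.40). TNFAIP3, the enzyme A20 that ends NF-kB signals, had 9.76, 9.78 and 9.86 in Raji and 8.35, 8.22 and 8.29 in Namalwa, against 12.71, 13.01 and 12.87 in L428+M, and the inhibitor NFKBIA had 10.26, 10.25 and 10.25 in Raji and 9.58, 9.50 and 9.60 in Namalwa, against 12.04, 11.81 and 11.84 in L428+M. Every Burkitt value of both lay below L428+M (-3.82 ± 0.14 and -1.99 ± 0.11). CFLAR, which blocks death receptor signals, fell by a change of -2.93 ± 0.27. CCR7, a homing receptor and NF-kB target, had 10.60, 10.64 and 10.71 in Raji and 6.40, 6.50 and 6.57 in Namalwa, against 12.60, 12.76 and 12.37 in L428+M, with Raji minus Namalwa at 4.16 ± 0.17. The subunits themselves were not called: the differences were 0.19 ± 0.11 for NFKB1, -0.84 ± 0.13 for NFKB2, 0.35 ± 0.22 for RELA, 0.48 ± 0.19 for RELB and -0.40 ± 0.15 for REL. NFKBIE (0.97 ± 0.15) lay close to the 2-fold threshold, and 1 NF-kB gene was called higher without Raji replicate 3, without Namalwa replicate 3, without L428+M replicate 1, or without all arrays numbered 3.

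Of 22 JAK-STAT genes 9 were called lower in the Burkitt lines, 1 higher and 12 not (median -0.83). STAT4 had 4.93, 5.16 and 5.63 in Raji and 5.27, 5.37 and 5.30 in Namalwa, against 10.89, 10.95 and 11.07 in L428+M, STAT5A had 6.23, 6.38 and 6.51 in Raji and 6.93, 6.90 and 6.44 in Namalwa, against 10.69, 10.66 and 10.28 in L428+M, and the kinase JAK2 had 5.59, 5.67 and 6.18 in Raji and 5.52, 5.84 and 5.91 in Namalwa, against 9.17, 9.16 and 9.48 in L428+M. The groups were widely separated in these 3 genes, and the 2 Burkitt lines gave close values, with changes of -5.69 ± 0.13, -3.98 ± 0.16 and -3.49 ± 0.17. STAT3, which transmits signals of interleukins, fell by a change of -2.41 ± 0.10 and STAT5B was not called (0.05 ± 0.13). The feedback inhibitor SOCS1 was called lower in the mean (-1.60 ± 0.48) although its Raji values overlapped those of L428+M. JAK1 (0.49 ± 0.10), TYK2 (-0.51 ± 0.15) and STAT6 (-0.81 ± 0.16) were not called. PIM2, a survival kinase, rose (1.58 ± 0.27).

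None of 13 AP-1 factors was called higher and 6 were called lower, where 6.61% and 7.85% of all genes were. Raji and Namalwa were not called apart in any of them, where 7.77% of all genes were. The lists of G1, germ-line, T-cell and NK-cell, and myeloid genes also had 0 members called apart. JUN had 6.89, 6.77 and 6.53 in Raji and 7.70, 7.64 and 7.32 in Namalwa, against 11.31, 11.16 and 11.10 in L428+M, and BATF3, a partner of JUN in Hodgkin cells, had 6.42, 6.44 and 7.12 in Raji and 6.62, 6.66 and 6.98 in Namalwa, against 10.67, 10.35 and 10.44 in L428+M. The Burkitt arrays lay below all L428+M arrays in both (-4.05 ± 0.16 and -3.78 ± 0.17). ATF3 (-2.46 ± 0.17) and BATF (-1.97 ± 0.13) also fell, whereas JUND (-0.21 ± 0.26), FOSL1 (0.09 ± 0.13) and FOSL2 (0.09 ± 0.13) were not called.

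Costimulatory and checkpoint ligands had 10 of 21 members called lower and 3 higher (median -0.92). CD200, which signals to macrophages, had 5.84, 5.22 and 6.24 in Raji and 5.34, 5.59 and 5.41 in Namalwa, against 10.47, 10.17 and 10.38 in L428+M, and PDCD1LG2, a ligand of PD-1 also named PD-L2, had 5.48, 5.05 and 5.77 in Raji and 5.39, 5.12 and 5.79 in Namalwa, against 9.65, 9.49 and 9.78 in L428+M. Both were dim in the Burkitt lines, bright in L428+M and free of overlap (-4.73 ± 0.19 and -4.21 ± 0.30). LGALS1, a lectin made by Hodgkin cells, fell by a change of -4.52 ± 0.13, and CD86, a ligand of CD28, by -4.36 ± 0.17. CD48 rose (5.29 ± 0.18), as did ICOSLG, the ligand of ICOS (2.57 ± 0.16). TNFSF8, the ligand of CD30, was high in Namalwa alone, with 5.77, 5.61 and 6.32 in Raji and 10.62, 10.70 and 10.97 in Namalwa, against 5.71, 5.67 and 6.07 in L428+M, so its Raji and L428+M values overlapped.

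Of 32 receptor tyrosine kinases, 3 were called higher and 5 lower, where 6.61% and 7.85% of all genes were, and the median change was -0.01. Raji and Namalwa were called apart in 9 of the 32, where 7.77% of all genes were. MET, the receptor of hepatocyte growth factor, had 9.71, 9.56 and 10.21 in Raji and 4.31, 3.99 and 4.46 in Namalwa, against 12.13, 12.28 and 12.41 in L428+M. L428+M was brightest, Raji lay between, and Namalwa was dimmest (5.57 ± 0.38 for Raji minus Namalwa). EPHB1, an ephrin receptor, was low in both lines (-5.08 ± 0.23), as were DDR2, a collagen receptor (-3.29 ± 0.15), and MST1R (-2.26 ± 0.27). ROR1, a receptor of Wnt ligands, rose in both lines and more in Namalwa (3.14 in Raji and 5.43 in Namalwa), and so did INSR, the insulin receptor (1.66 in Raji and 4.43 in Namalwa). KIT (0.04 ± 0.15), PDGFRA (-0.60 ± 0.13) and EGFR (0.0 ± 0.11) were not called.

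Surface molecules for contact and migration moved both ways. Among 7 SLAM genes SLAMF6 (5.91 ± 0.16) and CD84 (3.93 ± 0.13) rose, and the adaptors SH2D1A (-3.56 ± 0.28) and SH2D1B and the receptor CD244 (-2.41 ± 0.21) fell. Of 13 positioning receptors, 2 were called higher and 3 lower, where 6.61% and 7.85% of all genes were. CXCR5, which leads B cells into follicles, had 9.09, 9.59 and 9.62 in Raji and 6.39, 6.57 and 6.35 in Namalwa, against 5.71, 4.90 and 5.07 in L428+M, above L428+M in both lines and higher in Raji. S1PR1, which leads lymphocytes out of tissue, fell by a change of -2.86 ± 0.13, and GPR183, the receptor EBI2 for oxysterols, by -3.21 ± 0.33. S1PR4 was called higher (1.33 ± 0.34) and was not without L428+M replicate 3 (0.79). CXCR4 was not called (0.15 ± 0.14). Of 26 integrins and adhesion molecules, 7 were called higher and 5 lower, beside the same 6.61% and 7.85% of all genes. CD44, a receptor for hyaluronan, had 6.46, 6.42 and 6.61 in Raji and 6.27, 6.30 and 6.27 in Namalwa, against 10.66, 10.26 and 10.31 in L428+M, all Burkitt values being lower (-4.02 ± 0.11). ITGB2, the shared beta chain of leukocyte integrins, rose in both lines (2.66 ± 0.19), while its partner ITGAL lay above L428+M in Raji and below it in Namalwa (1.42 in Raji and -1.51 in Namalwa).

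Regulators of the actin cytoskeleton in blood cells had 11 of 27 members called higher and 2 lower (median 0.44). Beside ARHGDIB, the cytohesin partner CYTIP had 11.12, 11.22 and 11.31 in Raji and 10.72, 10.73 and 10.91 in Namalwa, against 4.53, 4.54 and 4.58 in L428+M, and ARHGEF6, an activator of Rac, had 9.23, 9.37 and 9.58 in Raji and 10.21, 10.22 and 10.78 in Namalwa, against 5.73, 5.29 and 5.20 in L428+M. The Burkitt values of both lay far above L428+M. HCLS1, a substrate of SYK and other kinases, rose by 3.47 ± 0.13, and DOCK8 by 2.04 ± 0.13. DOCK10, an activator of Cdc42, fell in both lines, further in Raji (-6.08 in Raji and -2.27 in Namalwa). The second fall, MYO1G (-1.05 ± 0.16), was not called without L428+M replicate 2. RAC2 (-0.18 ± 0.20), CORO1A (0.32 ± 0.20) and LCP1 (0.44 ± 0.16) were not called.

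**Figure D3:**
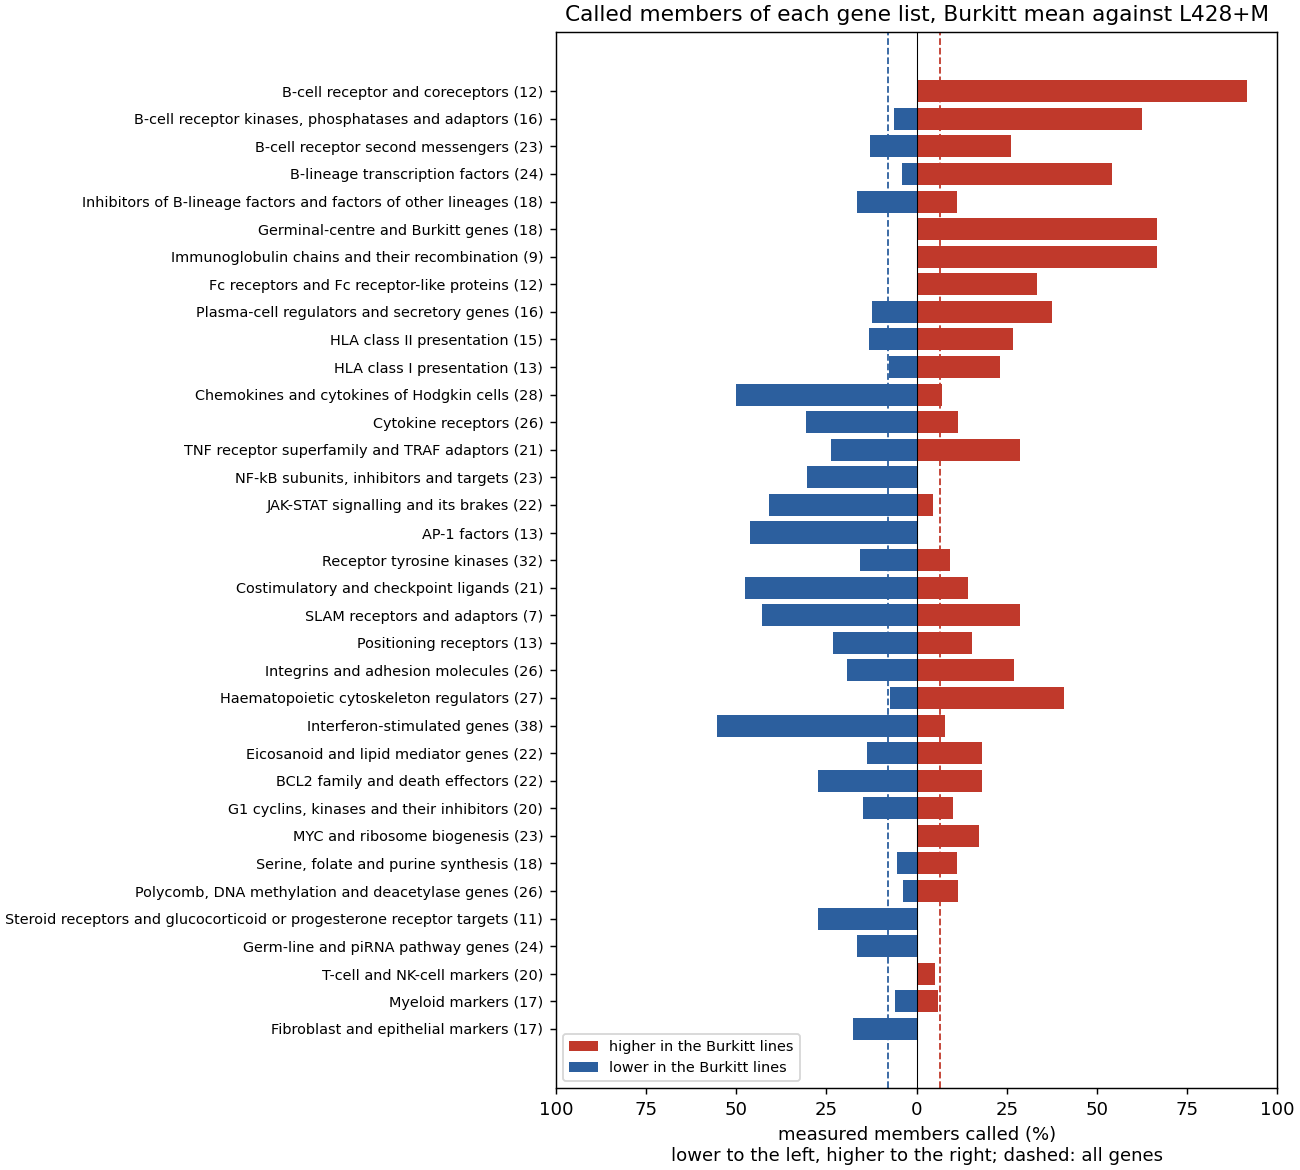
For each gene list the bar to the right gives the percent of measured members called higher in the Burkitt lines and the bar to the left the percent called lower, with the number measured in parentheses and dashed lines at 6.61% and 7.85% for all genes. B-cell receptor, germinal-centre and immunoglobulin lists reach furthest right, and interferon, Hodgkin cytokine, checkpoint and AP-1 lists furthest left.

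Lists of growth, survival and metabolic genes were counted next. Of all genes, 6.61% were called higher and 7.85% lower, 14.5% in either direction. Of 23 genes of the MYC list, 4 were called higher and none lower: ODC1 (1.72 ± 0.19), which makes polyamines, SRM (1.51 ± 0.25), POLR1A (1.12 ± 0.15) and NOLC1 (1.15 ± 0.13, and 0.97 without the arrays numbered 3, where it was not called). MYC itself had 11.41, 11.50 and 11.91 in Raji and 11.84, 11.85 and 11.87 in Namalwa, against 10.94, 10.75 and 10.74 in L428+M, higher on every Burkitt array but below the 2-fold threshold (0.92 ± 0.13, adjusted p = 8.82e-06). Of 20 genes of the G1 phase, 2 were higher and 3 lower. CCND2 had 5.71, 5.77 and 5.65 in Raji and 5.78, 5.48 and 5.72 in Namalwa, against 12, 12.32 and 12.15 in L428+M and CDKN1B, the inhibitor p27, had 8.57, 8.53 and 8.65 in Raji and 7.67, 7.96 and 7.72 in Namalwa, against 10.82, 10.82 and 10.27 in L428+M, both lower on all Burkitt arrays. E2F2 (1.78 ± 0.24) and CDKN1A, the inhibitor p21 (1.5 ± 0.22), rose. In the BCL2 family 4 of 22 were called higher and 6 lower. The death-promoting BID (2.64 ± 0.12) and BCL2L11, named BIM (2.53 ± 0.14), rose, the death inhibitors BCL2A1 (-2.83 ± 0.39) and BCL2L1 (-1.39 ± 0.21) fell with CASP8 (-1.68 ± 0.19) and BCL2L10 (-3.42 ± 0.29), and BCL2 was not called (0.44 ± 0.16) with the lines called apart (-0.14 in Raji and 1.02 in Namalwa).

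Among 26 polycomb, DNA methylation and deacetylase genes 3 were called higher and 1 lower, where 6.61% and 7.85% of all genes were. The methyltransferases DNMT3B (1.69 ± 0.18) and DNMT1 (1.36 ± 0.11) rose and EED, a polycomb subunit, fell (-1.34 ± 0.13), while EZH2 was not called (-0.10 ± 0.14). Of 18 genes of serine, folate and purine synthesis, 2 were higher and 1 lower (SHMT1, -1.59 ± 0.13). Of 22 lipid mediator genes 15 were not called, among them PTGS1 (0.88 ± 0.17) and PTGS2 (0.07 ± 0.15). ALOX5, which makes leukotrienes, had 11.25, 11.23 and 10.98 in Raji and 10.94, 10.92 and 10.43 in Namalwa, against 6.51, 6.16 and 6.31 in L428+M, and rose without overlap (4.63 ± 0.19) together with its activator ALOX5AP (2.39 ± 0.16) and LTA4H (1.32 ± 0.12). PLA2G4A, the phospholipase that releases arachidonic acid, had 3.75, 3.77 and 4.02 in Raji and 3.94, 3.62 and 3.76 in Namalwa, against 10.79, 10.73 and 11.06 in L428+M. It fell by a change of -7.05 ± 0.25, and the prostaglandin receptor PTGER4 (-3.23 ± 0.13) and synthase PTGES (-1.31 ± 0.23) fell too. The phospholipase PLA2G15 was called higher in Namalwa and not in Raji (1.20 ± 0.25), so that 4 of 22 were higher and 3 lower.

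Since mifepristone binds steroid receptors, their genes and targets were listed as well. None of 11 was called higher and 3 were called lower, where 6.61% and 7.85% of all genes were. These were DUSP1, a phosphatase of MAP kinases (-3.20 ± 0.17), SGK1 (-1.31 ± 0.18) and the glucocorticoid receptor NR3C1 (-1.15 ± 0.28). SGK1 was called in Namalwa and not in Raji. NR3C1 passed in 1 line, with Raji and Namalwa not called apart. TSC22D3 (0.07 ± 0.18), PER1 (0.08 ± 0.21) and the progesterone receptor PGR (-0.31 ± 0.16) were not called. The part of mifepristone in any difference was not tested. Of 24 germ-line genes, 4 were lower and none higher, where 7.85% and 6.61% of all genes were. GTSF1, a piRNA factor, had 4.42, 5.02 and 4.98 in Raji and 4.73, 4.76 and 4.84 in Namalwa, against 12.51, 12.13 and 12.26 in L428+M, and MAGEB2 (-5.17 ± 0.15) and PRAME (-3.81 ± 0.22) fell with it. MAGE probe sets may share signal.

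Interferon-stimulated genes divided the Burkitt lines more than any other list: Raji and Namalwa were called apart in 17 of 38 members, where 7.77% of all genes were. Against L428+M, 21 were called lower and 3 higher in the Burkitt mean (median -1.21), 14 of the lower ones in both lines. GBP5, a guanylate-binding protein, had 4.73, 4.79 and 5.14 in Raji and 4.64, 4.90 and 4.71 in Namalwa, against 9.74, 9.35 and 9.78 in L428+M, and GBP4 also fell (-4.02 ± 0.24). Raji and Namalwa were both dim in GBP5 and its change was -4.81 ± 0.18. IFIT3 fell in both lines as well, though less in Namalwa (-3.67 in Raji and -2.29 in Namalwa).

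A second group of these genes was low in Raji and not in Namalwa. SAMD9L had 5.06, 5.18 and 5.48 in Raji and 10.47, 10.52 and 10.85 in Namalwa, against 11.01, 11.25 and 11.50 in L428+M, and IFITM1, a membrane protein that blocks viral entry, had 6.73, 6.83 and 6.83 in Raji and 11.12, 11.07 and 10.55 in Namalwa, against 11.68, 11.58 and 11.42 in L428+M. MX2 had 5.19, 5.23 and 5.30 in Raji and 9.82, 9.63 and 9.73 in Namalwa, against 10.19, 10.22 and 9.92 in L428+M. The Namalwa mean lay within 1 log2 unit of the L428+M mean in all 3 genes, and Raji minus Namalwa was -5.37 ± 0.28, -4.12 ± 0.16 and -4.49 ± 0.16. A further group lay above L428+M in Namalwa and below it in Raji. MX1, a GTPase against viruses, had 5.65, 5.64 and 5.36 in Raji and 10.66, 10.28 and 10.62 in Namalwa, against 8.46, 8.50 and 8.11 in L428+M, and IFI44L had 5.15, 5.04 and 5.95 in Raji and 11.31, 11.43 and 11.57 in Namalwa, against 10.18, 10.41 and 10.70 in L428+M. The 3 lines did not overlap in either gene. IFI27 and OAS2 were called higher in Namalwa and not in Raji, with changes of -0.17 in Raji and 3.61 in Namalwa and 0.50 in Raji and 2.16 in Namalwa. TRIM22 rose in both (1.27 in Raji and 3.44 in Namalwa). IRF1 (0.02 ± 0.13), IRF7 (-0.14 ± 0.21) and ISG15 (0.21 ± 0.23) were not called.

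**Figure D4:**
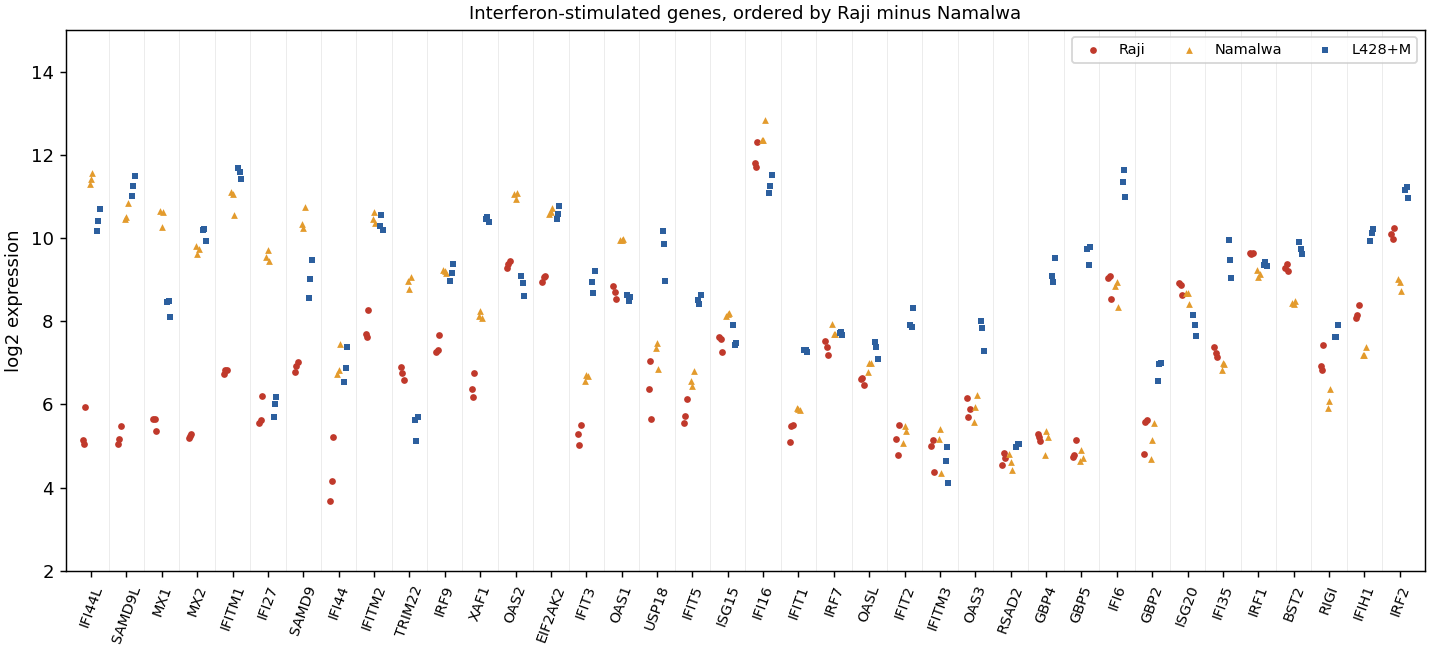
Log2 expression of 38 interferon-stimulated genes on each array is shown in order of Raji minus Namalwa, with red circles for Raji, orange triangles for Namalwa and blue squares for L428+M. From IFI44L to IFITM1 on the left, Namalwa lies near or above L428+M with Raji far below both, whereas GBP4, GBP5 and IFI6 on the right show both Burkitt lines below L428+M.

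Of the 48 genes on opposite sides of L428+M, 38 were higher in Namalwa and lower in Raji, and 10 the reverse. LEF1, the partner of beta-catenin, had 5.18, 5.50 and 5.68 in Raji and 11.75, 11.84 and 11.98 in Namalwa, against 8.39, 8.33 and 8.19 in L428+M. SMAD1, an effector of bone morphogenetic proteins, had 5.98, 5.71 and 5.99 in Raji and 10.58, 10.65 and 10.67 in Namalwa, against 7.89, 7.80 and 8.05 in L428+M, and RGS13 ran the other way, with 10.12, 10.23 and 10.09 in Raji and 4.56, 4.57 and 4.77 in Namalwa, against 7.22, 6.94 and 8.08 in L428+M. The 3 lines were separate from each other in all 3 genes, and their Burkitt means differed from L428+M by 0.35 ± 0.17, 0.35 ± 0.13 and -0.03 ± 0.27, none of them called. The imprinted gene MEST (-4.20 ± 0.18, Raji minus Namalwa), the polycomb protein SCML2 (-4.86 ± 0.18), the sodium channel SCN3A (-4.18 ± 0.19), CLMN (-4.40 ± 0.25), RIPOR1 (-3.62 ± 0.30) and the noncoding RNA PAX8-AS1 (-4.08 ± 0.17) followed the LEF1 pattern. So did BACH2, a repressor that delays plasma-cell fate, with means of 6.43 in Raji and 10.58 in Namalwa, against 8.0 in L428+M.

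Among genes called in 1 line, TES, a focal adhesion protein, had 11.08, 11.03 and 11.25 in Raji and 4.82, 4.39 and 5.33 in Namalwa, against 11.52, 11.59 and 11.56 in L428+M. AK4, a mitochondrial adenylate kinase, had 11.11, 11.29 and 11.24 in Raji and 5.13, 5.49 and 5.73 in Namalwa, against 10.77, 10.62 and 10.71 in L428+M, and NETO2 had 10.21, 10.22 and 10.39 in Raji and 4.65, 4.74 and 5.29 in Namalwa, against 10.32, 10.36 and 10.16 in L428+M. Raji resembled L428+M in these, within 1 log2 unit, and Namalwa was dim. MAP7D3 and MINPP1, an inositol phosphatase, were alike in this, at 4.81 ± 0.25 and 4.49 ± 0.19 for Raji minus Namalwa. SPARCL1, a matrix protein, and BICC1, an RNA-binding protein, were instead high in Raji with Namalwa near L428+M (4.56 in Raji and -0.27 in Namalwa for SPARCL1, and 4.71 in Raji and -0.04 in Namalwa for BICC1).

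In the other direction BNIP3, a receptor for mitochondrial clearance, had 6.09, 6.25 and 6.26 in Raji and 12.78, 12.83 and 13.03 in Namalwa, against 12.65, 12.56 and 12.73 in L428+M. The calcium-binding S100A10 had 5.60, 5.44 and 5.36 in Raji and 11.45, 11.70 and 11.14 in Namalwa, against 11.89, 11.95 and 11.89 in L428+M, and its relative S100A11 had 5.06 in Raji and 10.63 in Namalwa, against 11.42 in L428+M as group means. In all 3 genes Raji was dim and Namalwa lay close to L428+M. HSPA4L, a heat shock protein, ATXN7L1, and RRAGD, a GTPase that signals amino acid supply, behaved likewise, with Raji minus Namalwa at -6.0 ± 0.21, -5.57 ± 0.28 and -5.32 ± 0.22. MGST1, a glutathione transferase, was bright in Namalwa and dim in Raji and L428+M, with 3.86, 4.06 and 3.88 in Raji and 8.92, 9.12 and 9.83 in Namalwa, against 3.87, 3.65 and 4.13 in L428+M.

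Markers of other cell types were counted beside all genes, of which 6.61% were called higher and 7.85% lower. In the T-cell and NK-cell list 1 of 20 was called higher, the kinase LCK (1.89 ± 0.13), and none lower. The list does not hold GATA3 or THEMIS, described above, which fell in both lines. Its count thus does not cover every gene tied to T cells. The mean of the list was 5.88 to 6.0 on Raji arrays and 5.89 to 5.94 on Namalwa arrays, against 5.66 to 5.80 on L428+M arrays. The T-cell receptor chain CD3E had 5.15, 5.42 and 5.41 in Raji and 4.84, 5.03 and 5.28 in Namalwa, against 4.98, 5.11 and 5.08 in L428+M. In the myeloid list 1 of 17 was higher (AIF1, 1.0 ± 0.17, which was not called when any of 6 single arrays was left out, or all arrays numbered 3) and 1 lower (CD68, -1.89 ± 0.18), and its mean was 5.63 to 5.81 in Raji and 5.49 to 5.63 in Namalwa, against 5.50 to 5.75 in L428+M. CD14, which defines monocytes, had 6.10, 5.91 and 5.83 in Raji and 6.0, 5.93 and 5.70 in Namalwa, against 5.65, 5.92 and 6.12 in L428+M. The fibroblast and epithelial list had none higher and 3 of 17 lower, led by FN1, fibronectin (-3.31 ± 0.19), and its mean was 6.0 to 6.10 in Raji and 5.88 to 6.04 in Namalwa, against 6.32 to 6.43 in L428+M, without overlap between the Burkitt and L428+M arrays. The part of these markers in other results was not tested. All values of CD3E and CD14 lay below the median of all values.

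Chromosomes were tallied after the values had been seen, as a description with no test. On chromosome 13, 75 of 317 genes were called higher in the Burkitt lines (23.7%) and 12 lower (3.79%). On the other 22 chromosomes counted, the share called higher was 3.56% to 9.09%. Each line gave the pattern by itself, with 71 higher and 15 lower in Raji and 86 higher and 11 lower in Namalwa, and 60 genes higher in both. Over the 172 genes of chromosome 13 with a group mean above the median of all values, the median change was 0.80, and 143 of them lay above 0. On the other chromosomes that median lay between -0.16 and 0.21. Leaving out any 1 array gave 69 to 80 genes higher, and a median of 0.75 to 0.81.

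The genes on chromosome 13 with the largest shared rises were RUBCNL, a regulator of autophagy (5.10 ± 0.16), DNAJC15 (4.52 ± 0.20), ARL11 (3.30 ± 0.18), CAB39L (3.03 ± 0.30), ELF1 and SLC25A15, a mitochondrial ornithine carrier (2.50 ± 0.17). MIR17HG, the host transcript of a microRNA cluster that MYC induces, had 8.50, 8.17 and 7.74 in Raji and 8.27, 8.24 and 8.75 in Namalwa, against 5.38, 6.47 and 6.46 in L428+M, higher on all 6 Burkitt arrays (2.17 ± 0.30). The retinoblastoma gene RB1 had 10.59, 10.63 and 10.98 in Raji and 11.47, 11.59 and 11.80 in Namalwa, against 10.28, 10.29 and 10.44 in L428+M, with a difference of 0.84 ± 0.13, below the 2-fold threshold. Falls on this chromosome included SPRY2, an inhibitor of receptor tyrosine kinase signals (-3.76 ± 0.22), and GPR183.

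**Figure D5:**
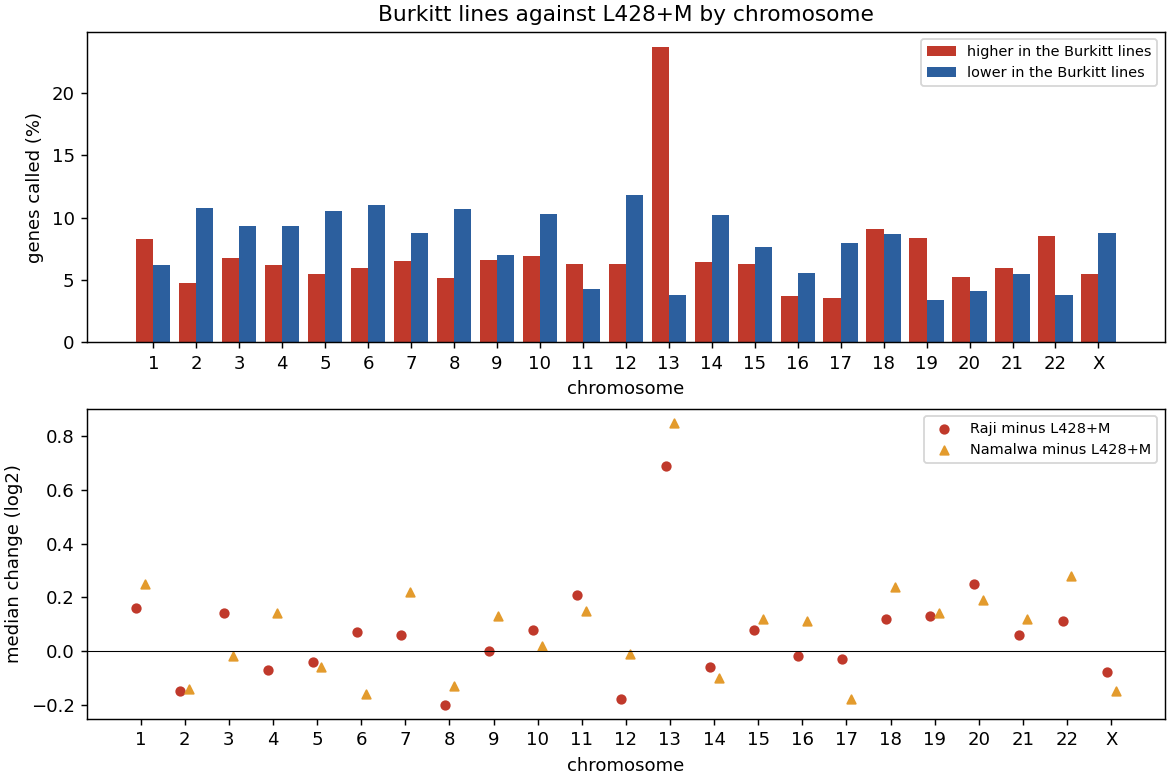
The upper panel gives, for chromosomes 1 to 22 and X, the percent of measured genes called higher (red) and lower (blue) in the Burkitt lines against L428+M, and the lower panel gives the median log2 change of the brighter genes in Raji (circles) and Namalwa (triangles). Chromosome 13 stands at 23.7% higher, with medians of 0.69 in Raji and 0.85 in Namalwa.

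Chromosome 19 had the lowest share called lower, 3.36%, against 8.33% higher. Its ZNF-named zinc finger genes made up 56 of those 109 rises: of 237 measured, 56 were called higher (23.6%) and 12 lower (5.06%), 47 of the rises in both lines. ZNF genes on other chromosomes had 29 of 258 higher (11.2%) and 18 lower (6.98%), and the other genes of chromosome 19 had 4.95% higher. ZNF730 had 9.84, 9.88 and 9.99 in Raji and 10.39, 10.91 and 10.73 in Namalwa, against 5.05, 4.92 and 5.45 in L428+M, the largest of these rises (5.15 ± 0.16), followed by ZNF737 (4.65 ± 0.20) and ZNF486 (4.39 ± 0.23). Their sequences are alike, so probe sets may share signal.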

How the data were processed

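Total RNA was converted to biotin-labelled cDNA and hybridised to Affymetrix whole-transcript arrays, per the labels' protocols. The deposited table gives log2 values, 1 per probe set and array. The submitters' processing notes name RMA and Partek; the order of their use and their versions were not given in the sources used here. Values span 2.24 to 14.64, with array medians of 6.52 to 6.70. Of 33297 probe sets, 19460 have 1 gene symbol in the platform annotation, 1754 have several and 12083 are not listed. For 769 genes with several probe sets the brightest on average was kept, which left 18417 genes.

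Groups came from the titles. limma 3.58.1 (R 4.3.3) was fitted over all 18 arrays with a mean for each group (12 residual degrees of freedom, prior 6.1), two-sided, with Benjamini-Hochberg adjustment over all genes. The contrast was the mean of Raji and Namalwa minus L428+M. Each line minus L428+M and Raji minus Namalwa were fitted alongside. A call needs an adjusted p below 0.05 and a 2-fold change. The scripts were tested on simulated data. Raji against L428+M and Namalwa against L428+M share the L428+M arrays.

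The samples compared and the 35 gene lists were chosen with earlier results of these data known, so list counts are descriptions. Genes are named as follows. From the shared calls with no overlap and a group mean above 7.18, the 12 largest rises and falls are named. From each list, up to 4 rises, 4 falls and members not called are named. Among genes on which the lines disagree, 10 opposite genes and 8 in each direction called in 1 line are named, besides a fixed set of lineage genes. Other genes named for a difference between lines, by chromosome or as a promoter example were chosen after their values were seen. Promoters are those of RefSeq GRCh38.p14, matched by gene ID. The alternatives tried were array scaling, variance model, fold threshold, probe sets per gene, a filter on dim genes, a replicate block, and leaving out each array.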

Additional observations from a re-analysis of the deposited data

Results flagged for a closer look

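Differences between Raji and Namalwa, tested by limma on the difference itself, passed in the 94 genes given below, some of them named only here. They also passed in 52 other members of the lists, which are not given. All values here are Raji minus Namalwa on the log2 scale. Of the 15 genes on opposite sides of L428+M, those higher in Raji differed by 5.51 for RGS13 and 2.93 for ITGAL. Those higher in Namalwa differed by -6.40 for LEF1, -6.06 for IFI44L, -4.97 for MX1, -4.86 for SCML2, -4.74 for SMAD1, -4.40 for CLMN, -4.20 for MEST, -4.18 for SCN3A, -4.15 for BACH2, -4.08 for PAX8-AS1, -3.62 for RIPOR1, -3.53 for SAMD9 and -3.38 for CREB3L2. Interferon-stimulated genes and regulators of B-cell fate stand among them.

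Of 20 genes called in Raji and not in Namalwa, those higher in Raji than in Namalwa differed by 4.83 for SPARCL1, 4.75 for BICC1, 4.26 for FCRL3, 4.20 for BANK1, 2.78 for ITGB7, 2.63 for HLA-DOB, 1.88 for IFI30, 1.83 for HLA-DQA1, 1.40 for TAP2 and 1.11 for FGFR4. Those lower in Raji differed by -6.68 for BNIP3, -6.00 for HSPA4L, -5.96 for S100A10, -5.57 for S100A11, -5.57 for ATXN7L1, -5.37 for SAMD9L, -5.32 for RRAGD, -4.49 for MX2, -4.12 for IFITM1 and -1.55 for PIK3CG. Class II antigen presentation genes stand in the first group.

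Of 20 genes called in Namalwa and not in Raji, those lower in Raji differed by -5.36 for MGST1, -4.86 for TNFSF8, -3.78 for IFI27, -3.70 for IL2RA, -3.34 for VPREB1, -3.13 for RAG2, -2.59 for CD9, -2.52 for TET1, -2.06 for PLA2G15, -1.66 for OAS2, -1.44 for TNFRSF1A, -1.37 for HRK and -1.06 for FCGR2A. Those higher in Raji differed by 6.27 for TES, 5.76 for AK4, 5.38 for NETO2, 4.81 for MAP7D3, 4.49 for MINPP1, 2.41 for SGK1 and 1.65 for ACTA2.

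In 34 genes both lines were called on the same side of L428+M but to different extents. Of 16 higher in both, those higher in Raji differed by 5.90 for MS4A1, 4.69 for CR2, 3.00 for SERPINA9, 3.00 for CXCR5, 2.23 for GRAP, 2.01 for FCGR2B, 1.80 for CD48, 1.51 for CD27, 1.30 for BCL2L11 and 1.0 for CD22, and those lower in Raji by -2.77 for INSR, -2.29 for ROR1, -2.17 for TRIM22, -2.01 for RUBCNL, -1.62 for TCL1A and -1.01 for ARHGEF6. Of 18 lower in both, those nearer to L428+M in Raji differed by 5.57 for MET, 4.16 for CCR7, 2.73 for LTA, 2.69 for FAS, 2.58 for TNF, 2.17 for EBI3, 1.63 for CD86, 1.52 for TNFAIP3, 1.46 for BCL2A1, 1.36 for TRAF1, 1.27 for CXCL10, 1.14 for THEMIS and 1.05 for PTGER4. Those lower in Raji differed by -4.05 for IRF4, -3.81 for DOCK10, -1.38 for IFIT3, -1.36 for ID2 and -1.08 for PRDM1. A further 5 genes were not called in the Burkitt mean, with 1.25 for IL4R, -1.72 for NOTCH1, -1.39 for TCF4, -1.32 for IKZF1 and -1.16 for BCL2. The cause of these differences was not tested.

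Probe sets outside the gene table also differed between the Burkitt mean and L428+M by the same call. Of the 1754 probe sets with several gene symbols, 223 were called (12.7%), 87 higher and 136 lower. Of the 12083 probe sets that the annotation does not list, 583 were called (4.82%), 396 higher and 187 lower. Their genes were not analysed here.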

How the results depend on the processing

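The 13 counts of the comparisons were made under 20 other settings, 260 counts in all, and 234 stayed within 1.5 times the reported count. The 26 others are those made with a different fold threshold. With limma's treat against a 2-fold change, genes higher and lower were 601 and 856 for the Burkitt mean, 540 and 922 for Raji, 774 and 820 for Namalwa, and 194 and 459 for Raji against Namalwa. The same setting gave 371 genes higher in both lines, 607 lower in both, 14 opposite, 95 called in Raji only and 89 in Namalwa only. With no fold threshold, the counts were 3453 and 3073, 2885 and 2864, 3384 and 2858, and 1426 and 2119 in the same order, with 1997 and 2002 shared, 225 opposite, 508 in Raji only and 751 in Namalwa only. Leaving out 1 array at a time gave 1189 to 1292 genes higher and 1390 to 1483 lower for the Burkitt mean, and 47 to 52 opposite. Equal replicate numbers were not treated as pairs: the deviations of same-numbered arrays correlated above 0.1 in 7 of 9 pairs and not in 2 (-0.01 to 0.54), and those of different numbers from -0.44 to 0.45. The arrays numbered 3 deviated together (0.40 to 0.54). With a replicate block the counts were 1218 higher, 1447 lower and 48 opposite, and no call of a named gene changed. Of 1400 list counts 73 moved by over 1.5 times, mostly with the fold threshold. Quantile normalization set the median change of all genes to 0.00 in place of 0.03. The number of arrays limits the precision. Line and mifepristone cannot be told apart, and each lymphoma is represented by its lines only.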
